A study of Mus musculus with 9 samples.

Results

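The 33 genes described here mark the oligodendrocyte lineage, the cells that make the myelin of the central nervous system. They were taken by name in 2 classes. The precursor class held 10 genes (Pdgfra, Cspg4, Olig1, Olig2, Sox10, Vcan, Neu4, C1ql1, Bcas1 and Enpp6) and the mature myelin class held 23 (Mbp, Mog, Mag, Mobp, Cnp, Cldn11, Mal, Ermn, Opalin, Ugt8a, Fa2h, Aspa, Myrf, Tspan2, Trf, Car2, Gjc3, Gjb1, Anln, Nkx6-2, Hapln2, Ppp1r14a and Tmem88b). All 33 were among the 18956 gene symbols of the count table, and all 33 passed the filter on low counts that left 18194 symbols for testing.

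Oligodendrocyte precursors divide under platelet-derived growth factor, which they sense through the receptor PDGFRα, and carry the proteoglycan NG2. The transcription factors OLIG1, OLIG2 and SOX10 specify the lineage, and MYRF then switches on the genes of the myelin sheath, whose compact membrane is held together by myelin basic protein and rich in galactolipid. Myelin formation in the adult brain is known to respond to experience, including social stress.

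Bulk RNA was sequenced from brain tissue labelled as the anterior paraventricular nucleus of the thalamus, a midline nucleus of mainly glutamatergic neurons, in BALB/c mice. The SHNK group was stressed by 5 days of social defeat, in which a mouse is exposed to an aggressive one, and received (2S,6S)-HNK, which is hydroxynorketamine, a breakdown product of ketamine. The stressed saline group had the same defeat and received saline, and the non-stressed saline group received saline with no defeat. Each group had 3 libraries. The labels used here give no age, dose or interval for these groups and do not state that each library is a different mouse, so the p-values measure the spread between libraries, which may be partly technical. In bulk RNA of this kind, fewer cells of a type and less RNA per cell cannot be told apart.

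Library totals ran from 32307869 to 51569143 counts. Vcan, the least abundant of the 33 per transcript length, had 64 to 132 counts in a library. Neuronal and thalamic genes were present in all libraries, with the vesicular glutamate transporter Slc17a6 at 483 to 711 counts scaled to library size (CPM, a scale on which each library has the same total), the calcium-binding protein Calb2 at 1685 to 2407 CPM and the dopamine receptor Drd2 at 3.92 to 7.65 CPM. The peripheral myelin gene Prx had 3 to 14 counts in a library. Genes of other cell types also differed between the groups. The summed level of the 12 habenula genes tested, of 15 listed, was 47.9 to 54.0 CPM in SHNK libraries, 270 to 860 CPM in stressed saline libraries and 86.8 to 158 CPM in non-stressed saline libraries (Chrnb3, Chrnb4 and Slc18a3 were not analysed here). The sum of 15 ependymal and cilia genes was 120 to 179, 210 to 313 and 110 to 129 CPM in the same order of groups. The sum of 10 astrocyte genes was 3633 to 3959, 4050 to 5263 and 4648 to 4876 CPM, and that of 10 neuronal genes was 6503 to 7761, 5536 to 5758 and 6015 to 6463 CPM. Aldoc was the largest part of the astrocyte sum and Snap25 of the neuronal sum, and single genes differed in direction. In stressed against non-stressed saline, 4 astrocyte genes were higher and 6 lower. In SHNK against stressed saline, 8 neuronal genes were higher and 2 lower. Every gene of these last 3 lists was tested and, like all deposited symbols, was above 0 in every library. The part of these shifts in the results on the 33 genes was not tested.

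Per kilobase of the median annotated transcript, the 33 genes covered a wide range of levels. Mbp, which encodes myelin basic protein, averaged 2162 CPM per kilobase over the 9 libraries. Mobp, which encodes a smaller basic protein of compact myelin and has a median annotated transcript of 498 bases, averaged 2088 CPM per kilobase. Next came Cnp, a phosphodiesterase of the non-compact cytoplasmic channels of myelin, at 222, the carbonic anhydrase Car2 at 197, and Trf, the iron carrier transferrin, at 145. Olig1, at 101, was the highest precursor gene. The lowest were the proteoglycan genes Cspg4, which encodes NG2, at 0.639 and Vcan, which encodes versican, at 0.403. Group means of neighbouring genes in this order often lay closer than their spread. Mbp, for example, was at 1890 ± 142, 2443 ± 531 and 2154 ± 284 CPM per kilobase and Mobp at 1859 ± 97.0, 2355 ± 463 and 2051 ± 355 in SHNK, stressed saline and non-stressed saline libraries (SD, n = 3 each).

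**Figure D1:**
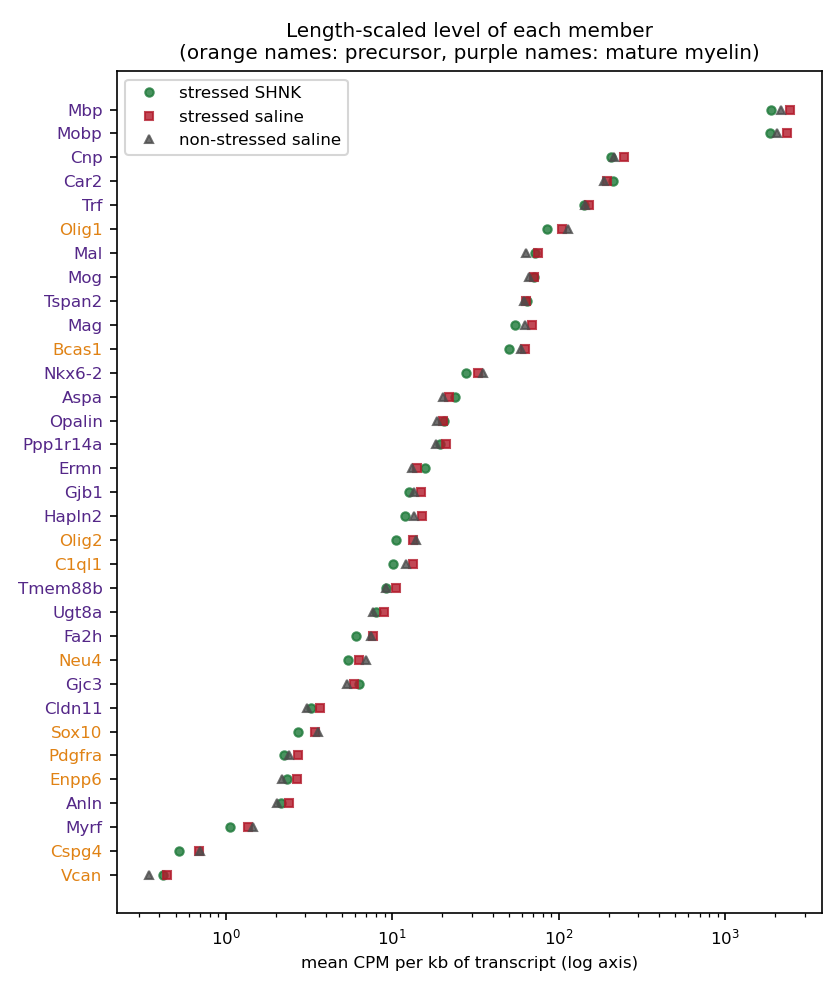
Mean level of each of the 33 genes in CPM per kilobase of transcript (log axis) in SHNK, stressed saline and non-stressed saline libraries (n = 3 each). Mbp and Mobp lie far to the right, at 2162 and 2088 CPM per kilobase over all libraries, and Vcan lies lowest at 0.403.

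The first comparison, of stressed with non-stressed mice given saline, asks what social defeat alone does to the lineage. Most mature myelin genes were slightly higher in the stressed libraries, and none of the 33 passed the test. Of the 23 mature genes, 21 had a log2 fold change above 0, with a median of 0.14 and a range of -0.10 to 0.25. Over all tested genes, 8273 of 18194 were above 0. Mature genes deviated together within groups (median Pearson's r of 0.68 over 253 pairs), so their signs are not independent. The 10 precursor genes split evenly, 5 above and 5 below 0, with a median of 0.034, against -0.017 over all tested genes. Counts were fitted with the quasi-likelihood test of edgeR, and a gene was called at a Benjamini-Hochberg adjusted p under 0.05 over all tested genes.

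The edgeR test called 0 of 33 members (smallest adjusted p = 0.504), as did DESeq2 and limma voom, while 1.17% of all tested genes were called by edgeR. At an unadjusted p under 0.05, 1 member was higher, against 6.08% of all genes, and 0 were lower, against 3.37%. In 2 members the groups did not overlap with stressed saline higher, a state shared by 7.36% of all genes, and in 0 with stressed saline lower, against 5.53%. The edgeR count behind that 1.17% was 213 genes, and it was 40 when stressed saline replicate 2 was left out, and 50 and 71 when non-stressed saline replicates 1 and 2 were. The mature median was 0.24 with replicate 2 of either group left out, 0.089 with non-stressed saline replicate 1 left out and 0.019 with stressed saline replicate 3 left out.

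The member with p under 0.05 was Ugt8a, which makes the galactosylceramide of the myelin membrane. It had 33.01, 34.7 and 33.3 CPM in stressed saline libraries, against 31.4, 29.6 and 25.2 CPM in non-stressed saline libraries. The stressed libraries lay within a narrow band just above the highest non-stressed one. The log2 fold change was 0.23 ± 0.10 (standard error; edgeR adjusted p = 0.504).

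Anln, which encodes the actin-binding protein anillin, was the other gene whose groups did not overlap. It had 12.2, 10.5 and 10.4 CPM in stressed saline libraries, against 9.38, 9.46 and 9.37 CPM in non-stressed saline libraries (log2 fold change 0.24 ± 0.13, edgeR adjusted p = 0.683). Cnp had 601, 502 and 632 CPM in stressed saline libraries, against 487, 537 and 497 CPM in non-stressed saline libraries. Here stressed saline replicate 2 lay among the non-stressed libraries, and the log2 fold change was 0.19 ± 0.097 (edgeR adjusted p = 0.606).

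Among precursor genes, those with the smallest p were Enpp6, Vcan and Olig1. Enpp6, a choline phosphodiesterase of newly forming oligodendrocytes, had 7.90, 7.54 and 10.1 CPM in stressed saline libraries, against 6.20, 6.33 and 8.32 CPM in non-stressed saline libraries, and Vcan had 1.97, 2.83 and 2.76 CPM against 2.21, 2.00 and 1.72 CPM. Both pairs of groups overlapped, with log2 fold changes of 0.29 ± 0.18 and 0.35 ± 0.24 (edgeR adjusted p = 0.725 and 0.799). Olig1 was at -0.11 ± 0.096 (edgeR adjusted p = 0.874), and Pdgfra, Olig2 and Mbp were at 0.17 ± 0.15, -0.056 ± 0.11 and 0.18 ± 0.14.

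The second comparison, of SHNK with stressed saline, asks what the metabolite does after defeat. All 10 precursor genes and 16 of the 23 mature genes were lower in SHNK libraries, by modest amounts, and none of the 33 passed the edgeR test. Over all tested genes, 9342 of 18194 were lower. The precursor log2 fold changes ran from -0.40 to -0.078 with a median of -0.32, and the mature ones from -0.37 to 0.16 with a median of -0.17, against -0.0091 over all tested genes. The nearest to the threshold were the paired lineage factors Olig1 and Olig2, the secreted C1q-like protein C1ql1, and Bcas1, a marker of oligodendrocytes that are starting to myelinate. This comparison shares its stressed saline libraries with the one before, and the members' values in each are given side by side here and not set against each other.

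By edgeR 0 of 33 members passed (adjusted p from 0.0762 to 0.976), against 6.41% of all tested genes. DESeq2 called 2 members lower, Olig1 (adjusted p = 0.0443) and C1ql1 (adjusted p = 0.0362), against 7.18% of the genes to which it gave an adjusted p. Limma voom called 3 lower, Olig1 (adjusted p = 0.0283), Olig2 (adjusted p = 0.0248) and C1ql1 (adjusted p = 0.0488), against 7.68% of all genes. At an unadjusted p under 0.05, 9 members were lower, of which 4 were precursor genes and 5 mature, against 12.8% of all genes, and 0 were higher, against 10.6%. The groups did not overlap with SHNK lower in 5 members (Cspg4, Olig1, Olig2, C1ql1 and Ugt8a), against 15.9% of all genes, and with SHNK higher in 0, against 14.4%.

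The all-gene edgeR count was 1167, 446 higher and 721 lower. It became 796 higher and 634 lower when library-specific trends on GC content and transcript length entered the fit, an alternative added after seeing the data. It was 653, 367 and 718 without stressed saline replicates 1, 2 and 3 in turn, and 238 and 176 without SHNK replicates 2 and 3.

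Olig1 had 188, 177 and 185 CPM in SHNK libraries, against 247, 209 and 223 CPM in stressed saline libraries. The SHNK libraries lay close together, all below the lowest stressed one. The level was 0.810-fold that of stressed saline (95% interval 0.702 to 0.935; log2 fold change -0.30 ± 0.097, edgeR adjusted p = 0.0762). Without non-stressed saline replicate 3, which enters through the shared estimate of spread, the adjusted p was 0.0436, and it was 0.0390 in a fit of these 2 groups alone. The 8 other removals of a library left Olig1 uncalled (edgeR adjusted p up to 0.246).

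Olig2, the partner factor needed to specify the lineage, had 28.9, 25.0 and 26.1 CPM in SHNK libraries, against 36.8, 34.5 and 29.6 CPM in stressed saline libraries. The highest SHNK library came within 1 CPM of the lowest stressed one (log2 fold change -0.34 ± 0.11, edgeR adjusted p = 0.0927). The 2 genes are neighbours on chromosome 16 of GRCm38, Olig2 at chr16:91225550-91228677 and Olig1 at chr16:91269769-91271939, with 41091 bases between them.

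C1ql1 had 15.9, 14.3 and 14.1 CPM in SHNK libraries, against 18.9, 16.6 and 23.1 CPM in stressed saline libraries. The ranges did not overlap, and the stressed libraries were the more scattered (log2 fold change -0.40 ± 0.13, edgeR adjusted p = 0.0777). Bcas1 had 158, 147 and 131 CPM in SHNK libraries, against 199, 150.1 and 202 CPM in stressed saline libraries. Stressed saline replicate 2 lay inside the SHNK range (log2 fold change -0.34 ± 0.12, edgeR adjusted p = 0.0989), and without it the adjusted p was 0.0424. Bcas1 was not called in the 8 other removals of a library (edgeR adjusted p up to 0.356).

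Pdgfra, the receptor that marks precursors, had 14.3, 10.7 and 10.9 CPM in SHNK libraries, against 16.8, 14.1 and 12.3 CPM in stressed saline libraries. The groups overlapped through SHNK replicate 1 (log2 fold change -0.27 ± 0.15, edgeR adjusted p = 0.308). Cspg4 was at -0.40 ± 0.20, and Sox10, which acts in both precursors and mature cells, at -0.34 ± 0.23. The sialidase Neu4 was at -0.22 ± 0.12, Enpp6 at -0.20 ± 0.18 and Vcan at -0.078 ± 0.24.

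Summed over the 10 genes, the precursor class was at 421 ± 24.2 CPM in SHNK libraries, 523 ± 50.2 CPM in stressed saline libraries and 528 ± 47.9 CPM in non-stressed saline libraries (SD, n = 3 each). The highest SHNK library, at 448 CPM, lay below the lowest stressed one, at 467 CPM. Olig1 and Bcas1 make up most of this sum, so it follows these genes more than the class. Within groups, deviations of Bcas1 had Pearson's r of 0.97 with those of Mbp and -0.11 with those of Olig2. For Olig1 these values were 0.33 and 0.69. Whether the sum reflects precursor cells was not tested.

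Among mature genes, those with p under 0.05 were Cnp, Mbp, Mag, Mobp and Hapln2. Mbp had 3950.0, 3614 and 3404 CPM in SHNK libraries, against 5380.4, 3542 and 5256 CPM in stressed saline libraries. Stressed saline replicate 2 lay inside the SHNK range, and the other stressed libraries were far above it. The log2 fold change was -0.37 ± 0.14 (edgeR adjusted p = 0.122), and without stressed saline replicate 2 it was -0.54 (adjusted p = 0.0271). In the 8 other removals of a library Mbp was not called (edgeR adjusted p up to 0.367). That library also had the highest habenula sum, 860 CPM against 270 and 491 CPM in the other stressed saline libraries. Any link between the habenula sum and Mbp was not tested.

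Cnp and Mag, an adhesion molecule of the innermost myelin layer, had the same arrangement. Cnp had 525, 486 and 434 CPM in SHNK libraries, against 601, 502 and 632 CPM in stressed saline libraries. Mag had 150.2, 132 and 112 CPM in SHNK libraries, against 172, 133 and 194 CPM in stressed saline libraries. Their log2 fold changes were -0.26 ± 0.097 and -0.34 ± 0.13 (edgeR adjusted p = 0.122 and 0.123), and Mag had an adjusted p of 0.04998 without stressed saline replicate 2. Mag was not called in the 8 other removals of a library (edgeR adjusted p up to 0.429).

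Mobp and Hapln2, a link protein of the nodal matrix, were at -0.34 ± 0.14 and -0.33 ± 0.13 (edgeR adjusted p = 0.1497 and 0.160). The 7 mature genes above 0 were Ermn, Car2, Aspa, Gjc3, Opalin, Mog and Tspan2. The highest of these was Ermn, which encodes the cytoskeletal protein ermin, with 61.0, 57.0 and 52.5 CPM in SHNK libraries, against 53.5, 45.6 and 53.7 CPM in stressed saline libraries (log2 fold change 0.16 ± 0.10, edgeR adjusted p = 0.389). Its groups overlapped.

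The mature median was -0.28 without stressed saline replicate 2, -0.26 without SHNK replicate 1, -0.038 without stressed saline replicate 3 and -0.089 without SHNK replicate 3. Summed over the 23 genes, the mature class was at 6530.1 ± 486 CPM in SHNK libraries, 7998 ± 1537 CPM in stressed saline libraries and 7110.1 ± 903 CPM in non-stressed saline libraries (SD, n = 3 each). Mbp alone took 0.324% to 0.399%, 0.368% to 0.549% and 0.382% to 0.474% of all counts in the same order of groups. All of these ranges overlapped.

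**Figure D2:**
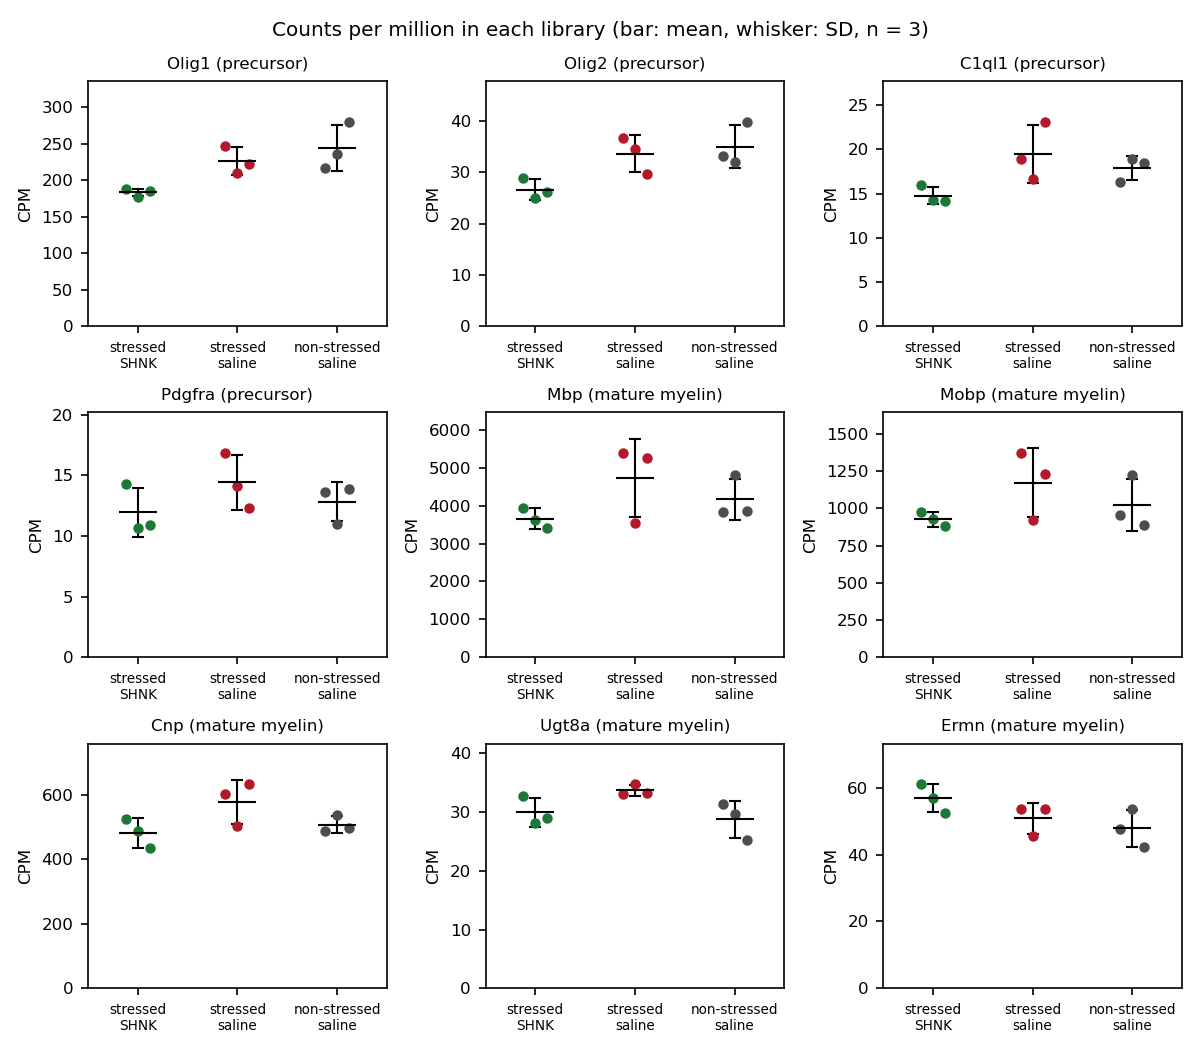
CPM in each library for 9 of the genes, with SHNK left of stressed saline and non-stressed saline; points are libraries, bars means and whiskers SD (n = 3 each). Olig1, Olig2 and C1ql1 show all 3 SHNK libraries below both saline groups, whereas in Mbp, Mobp and Cnp 1 stressed saline library lies within the SHNK range.

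Of the 9 genes with p under 0.05, 5 have an entry in the RefSeq promoter table for GRCm38.p6, which holds 24 of the 33 members. The 250 bases before the start listed there (the one farthest upstream where several are listed) are printed below for these 5, so that the letters can be read beside the values above, on the strand of each gene. Capitals mark ACAAAG or its reverse complement CTTTGT, the core that SOX factors such as SOX10 are known to bind. The windows are chr16:91225300-91225549 (plus strand) for Olig2, chr7:30914923-30915172 (minus) for Mag, chr11:100574689-100574938 (plus) for Cnp, chr9:120149492-120149741 (plus) for Mobp and chr3:88027512-88027761 (minus) for Hapln2. The last 30 bases of the Cnp window lie inside the annotated gene, whose outer start is farther upstream.
Olig2: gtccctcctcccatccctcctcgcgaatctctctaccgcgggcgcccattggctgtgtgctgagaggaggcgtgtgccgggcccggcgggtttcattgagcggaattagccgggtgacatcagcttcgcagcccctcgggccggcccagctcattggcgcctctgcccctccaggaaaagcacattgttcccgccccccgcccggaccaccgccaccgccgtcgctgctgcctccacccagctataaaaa
Mag: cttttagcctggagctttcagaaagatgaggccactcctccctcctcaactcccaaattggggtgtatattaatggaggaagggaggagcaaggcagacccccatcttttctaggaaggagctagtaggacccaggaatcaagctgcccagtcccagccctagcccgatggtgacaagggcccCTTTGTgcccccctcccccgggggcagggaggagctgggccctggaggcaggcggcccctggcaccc
Cnp: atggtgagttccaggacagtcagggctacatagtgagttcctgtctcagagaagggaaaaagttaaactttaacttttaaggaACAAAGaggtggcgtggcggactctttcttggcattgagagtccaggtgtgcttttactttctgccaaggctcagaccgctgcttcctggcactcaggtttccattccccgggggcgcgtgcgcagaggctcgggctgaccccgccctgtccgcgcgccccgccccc
Mobp: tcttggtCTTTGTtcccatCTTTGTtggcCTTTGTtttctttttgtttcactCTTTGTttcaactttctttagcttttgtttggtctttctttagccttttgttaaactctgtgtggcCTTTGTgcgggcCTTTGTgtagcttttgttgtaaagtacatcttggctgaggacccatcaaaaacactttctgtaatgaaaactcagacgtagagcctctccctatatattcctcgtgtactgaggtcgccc
Hapln2: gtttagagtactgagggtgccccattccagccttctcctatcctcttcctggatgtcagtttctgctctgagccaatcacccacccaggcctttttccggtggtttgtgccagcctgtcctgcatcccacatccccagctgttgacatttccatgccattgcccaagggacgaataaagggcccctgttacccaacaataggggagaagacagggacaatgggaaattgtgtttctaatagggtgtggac

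The Mobp window held the core 6 times, those of Mag and Cnp once each, and those of Olig2 and Hapln2 had 0 matches. Over both strands, ACAAAG was found in 5 of the 24 members (20.8%), which were Cnp, Gjb1, Mag, Mobp and Opalin, and in 16.5% of all 27025 promoters. All 5 were among the 18 mature genes with an entry, and 0 of 6 precursor genes had it. Of all 27025 promoters, 1 had 6 or more matches, and it was that of Mobp. The cut-off of 6 was the count of Mobp itself, so its inclusion was fixed in advance. The E-box CANNTG, the kind of motif bound by OLIG1 and OLIG2, was found in 62.5% of the members and 66.1% of all promoters; the motifs may overlap at their ends. A match is a description of the letters, not a binding site.

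The last comparison sets treated, defeated mice (SHNK) beside mice never stressed. The precursor genes were again mostly lower, 8 of 10 with a median log2 fold change of -0.31, and the mature genes were spread around 0, with 13 above, 10 below and a median of 0.053. Over all tested genes, 9237 of 18194 were below 0, with a median of -0.0049. None of the 33 passed the edgeR test. The mature median was below 0 without non-stressed saline replicate 1 (-0.056), non-stressed saline replicate 3 (-0.026) or SHNK replicate 1 (-0.033).

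The edgeR test called 0 of 33 members (adjusted p from 0.0835 to 0.988), against 0.00550% of all tested genes, that is 1 gene. DESeq2 called 2 lower, Olig1 (adjusted p = 0.00879) and Olig2 (adjusted p = 0.0323), against 5.00% of the genes it gave an adjusted p, and limma voom called 0. At an unadjusted p under 0.05, 3 members were lower, all precursor genes, against 11.0% of all genes, and 1 was higher, against 7.31%. The groups did not overlap with SHNK lower in 4 members (Olig1, Olig2, Neu4 and C1ql1), against 11.5% of all genes, and with SHNK higher in 0, against 9.83%. The all-gene edgeR count was 749 without non-stressed saline replicate 2 and between 0 and 8 without each other library.

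Olig1 had 188, 177 and 185 CPM in SHNK libraries, against 217, 236 and 279 CPM in non-stressed saline libraries. All SHNK libraries were lower, and the non-stressed libraries were widely spread. The level was 0.751-fold that of non-stressed saline (95% interval 0.650 to 0.867; log2 fold change -0.41 ± 0.097, edgeR adjusted p = 0.0835). The adjusted p was 0.0424 without non-stressed saline replicate 2, and reached 0.396 as other libraries were left out.

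Olig2 had 28.9, 25.0 and 26.1 CPM in SHNK libraries, against 33.2, 31.95 and 39.7 CPM in non-stressed saline libraries, without overlap (log2 fold change -0.39 ± 0.11, edgeR adjusted p = 0.110). Neu4 had 16.3, 18.8 and 15.8 CPM in SHNK libraries, against 19.4, 21.9 and 23.3 CPM in non-stressed saline libraries, also without overlap (log2 fold change -0.34 ± 0.12, edgeR adjusted p = 0.160). C1ql1 was at -0.27 ± 0.13. Pdgfra was at -0.11 ± 0.15, with 13.6, 11.0 and 13.9 CPM in non-stressed saline libraries, and Mbp at -0.19 ± 0.14, with 3832, 4799.7 and 3867 CPM there. Both overlapped the SHNK values given above.

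Ermn was the member with p under 0.05 that was higher. It had 61.0, 57.0 and 52.5 CPM in SHNK libraries, against 47.6, 53.5 and 42.3 CPM in non-stressed saline libraries (log2 fold change 0.25 ± 0.11, edgeR adjusted p = 0.224). Non-stressed saline replicate 2 lay inside the SHNK range. Among mature genes the next by p were Nkx6-2, a homeobox factor of mature oligodendrocytes, and Aspa, which splits N-acetylaspartate to supply acetate. Nkx6-2 had 38.2, 38.4 and 31.9 CPM in SHNK libraries, against 36.7, 55.7 and 44.1 CPM in non-stressed saline libraries (log2 fold change -0.33 ± 0.16, edgeR adjusted p = 0.305). Aspa had 36.2, 40.6 and 40.2 CPM in SHNK libraries, against 29.9, 40.2 and 28.6 CPM in non-stressed saline libraries (log2 fold change 0.25 ± 0.13, edgeR adjusted p = 0.335). In both genes 1 non-stressed library lay within the SHNK range.

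**Figure D3:**
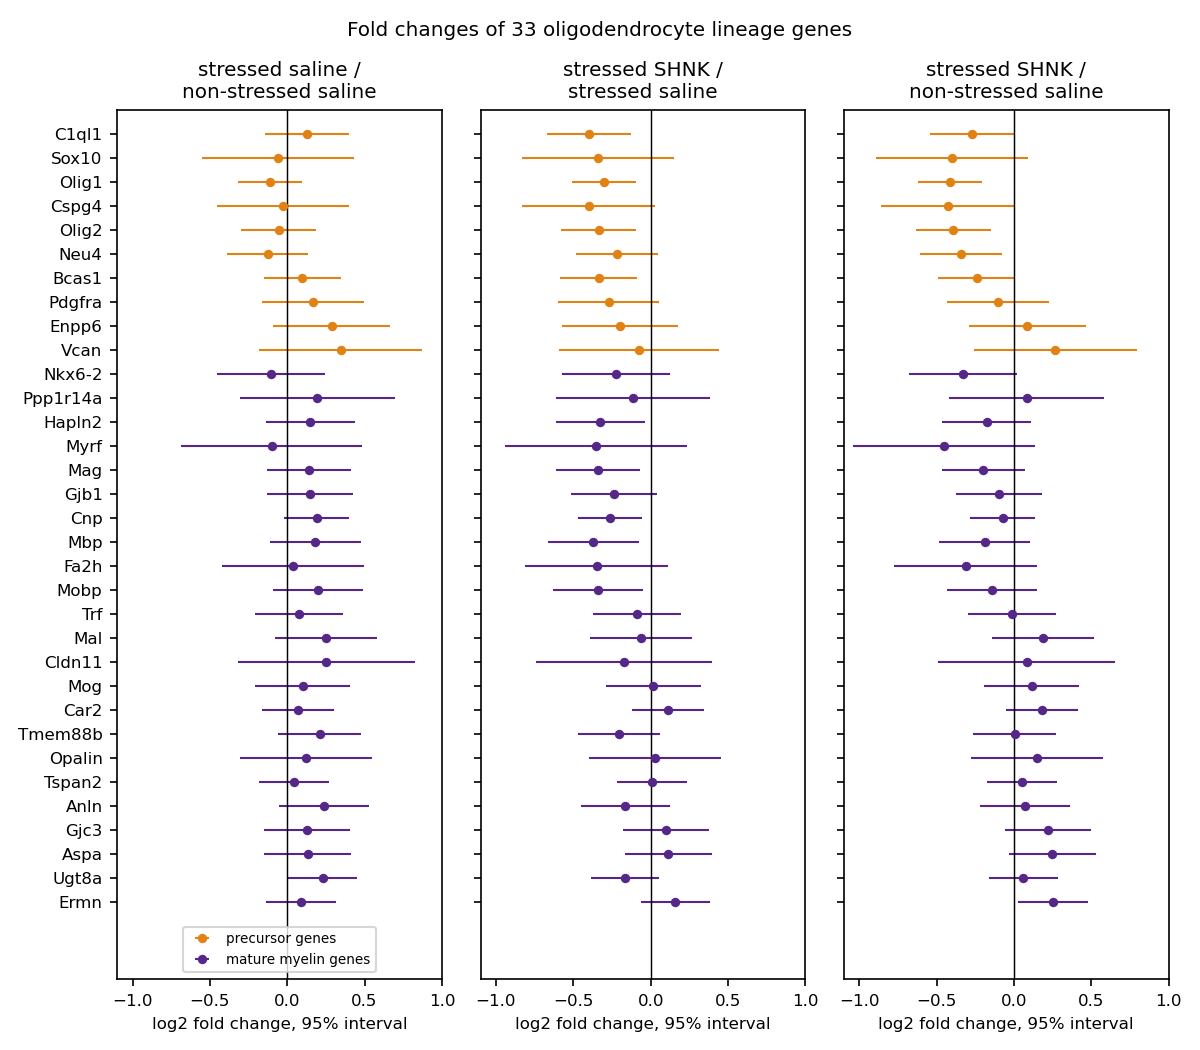
Log2 fold changes (points) with 95% intervals (lines) of the 33 genes in the 3 comparisons, with genes ordered by transcript GC content within each class. In SHNK against stressed saline all 10 precursor points lie left of 0, and in SHNK against non-stressed saline 8 of 10 do.

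Within each group the mature genes tended to be high or low together. SHNK replicate 1 was the highest of its group for 20 of the 23 genes and SHNK replicate 3 the lowest for 18. Stressed saline replicate 3 was the highest for 17 and stressed saline replicate 2 the lowest for 20. Non-stressed saline replicate 2 was the highest for 20. The precursor genes had another order among the non-stressed libraries, where replicate 3 was the highest for 7 of 10, while SHNK replicate 1 was the highest of its group for 8 of 10. The genes outside the 33 whose log2 CPM followed the mature mean most closely over the 9 libraries, among genes averaging 4 or more in log2 CPM, were 2810468N07Rik, Phactr1, Qdpr, Agpat4, Plin3, Evi2a, Phlda3, Gstm4, Gm12184 and Rpl22, with Pearson's r from 0.847 to 0.929. All points share the same libraries, and these values are a description.

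**Figure D4:**
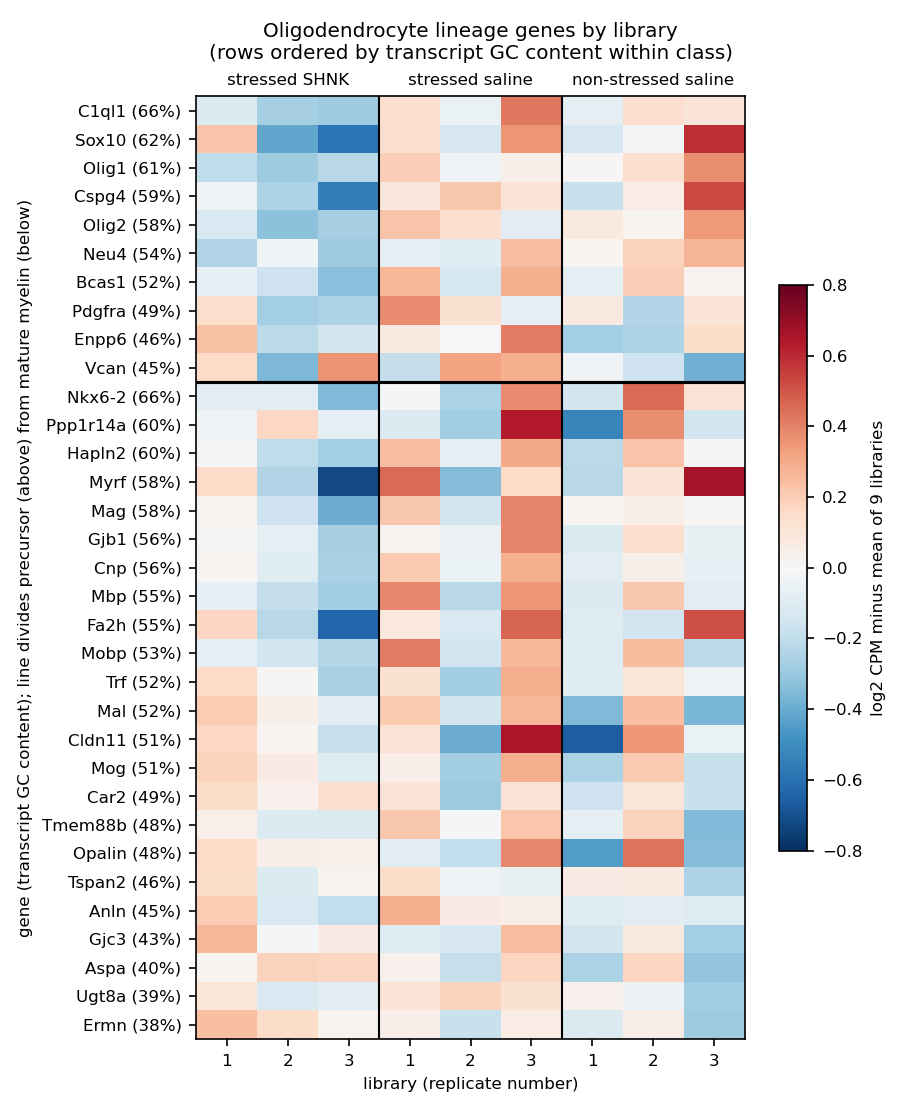
Log2 CPM of each gene in each library minus its mean over the 9 libraries (color), with SHNK, stressed saline and non-stressed saline libraries from left to right. Among the mature genes stressed saline replicate 2 is the lowest of its group for 20 of 23 and non-stressed saline replicate 2 the highest of its group for 20 of 23.

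In both SHNK comparisons the fold changes of the 33 genes tended to be lower the higher the GC content of their transcripts. Median GC was 56.1% in the precursor class, 51.9% in the mature class and 50.6% over all tested genes with a value (16724). Across the 33 genes, Spearman's rho between log2 fold change and GC content was -0.72 for SHNK against stressed saline, -0.78 for SHNK against non-stressed saline and -0.42 for stressed against non-stressed saline. Over all 16724 genes it was -0.34, -0.46 and -0.12 in the same order. Within the mature class it was -0.70, -0.74 and -0.12, and within the precursor class -0.82, -0.77 and -0.60. These are values across genes, which share the libraries and are not independent replicates.

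In SHNK against stressed saline, all 14 members with at least 55% GC were below 0, with a median of -0.34, against -0.15 over the 4341 genes of that class. Of the 15 members between 45% and 55% GC, 11 were below 0, with a median of -0.16, against 0.0065 over all genes of the class. Of the 4 members under 45% GC, 3 (Ermn, Aspa and Gjc3) were above 0, with a median of 0.11 for both the members and all genes of the class, and Ugt8a was below. In SHNK against non-stressed saline the members' medians, from the highest GC class to the lowest, were -0.29, 0.071 and 0.23, against -0.19, 0.0089 and 0.14 over all genes of each class. The members' medians lay below those of all genes of the class in the upper 2 classes of the first of these comparisons. In the other they did so only in the highest class. GC content was not matched within a class. In SHNK against stressed saline the all-gene median was -0.13 in a narrow bin around 57% GC and -0.24 in one around 63%. The origin of these trends was not tested.

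Single libraries differed in the same way. The correlation of a gene's level, relative to its mean over the libraries, with GC content was -0.28, -0.23 and -0.43 (Spearman's rho over 16724 genes) in SHNK libraries, 0.052, -0.055 and 0.35 in stressed saline libraries and 0.016, 0.081 and 0.46 in non-stressed saline libraries. The SHNK libraries were all below the others. With offsets for GC content and transcript length in each library, the precursor median was -0.093 for SHNK against stressed saline, still with 10 of 10 genes below 0, and -0.034 for SHNK against non-stressed saline. The mature medians were -0.13 and 0.012.

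Olig1 was at -0.058 (edgeR adjusted p = 0.719) and -0.13 (adjusted p = 0.545) with these offsets, and Olig2 at -0.099 and -0.13. Mobp, by contrast, was at -0.38 for SHNK against stressed saline (edgeR adjusted p = 0.101), against -0.34 without them, and Ugt8a at -0.27 (adjusted p = 0.0862), against -0.17. The offsets left 0 of 33 members called in each of the 3 comparisons.

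**Figure D5:**
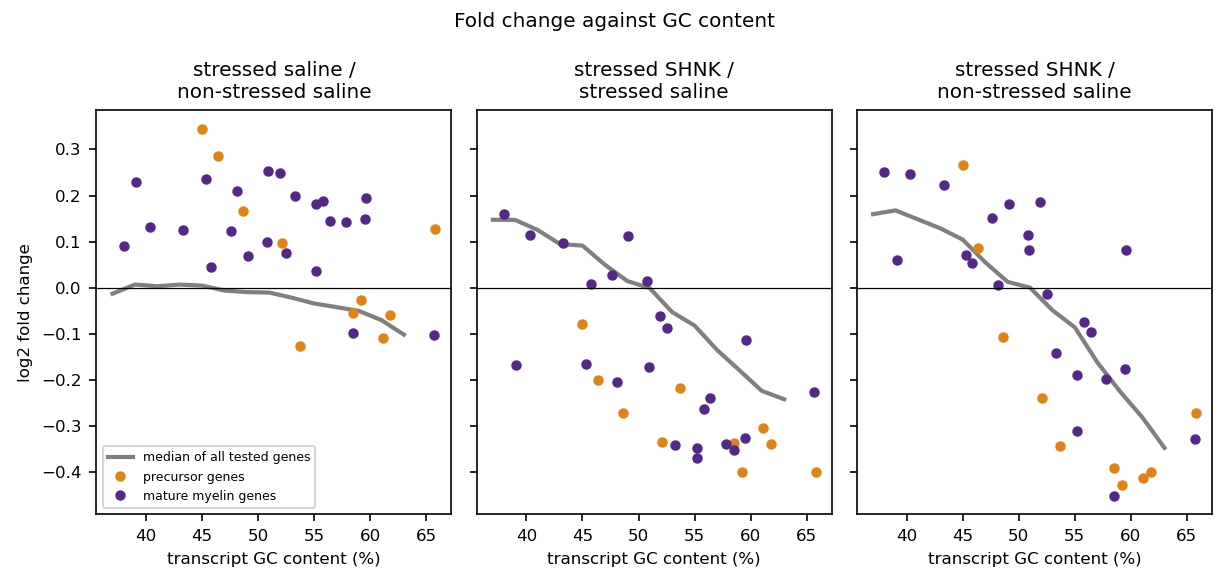
Log2 fold change against transcript GC content (%) for the 33 genes (points), with the median of all tested genes in bins of GC content (grey line). In both SHNK comparisons the points and the line slope downward, with rho of -0.72 and -0.78 over the 33 genes.

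Further genes of the pathway were taken from 3 lists. Their counts are to be read against the shares of all tested genes, in either direction. Under stress, 1.17% of all genes were called by edgeR, 2.65% by DESeq2 and 0.561% by limma voom, and 9.45% had an unadjusted p under 0.05. In SHNK against stressed saline these shares were 6.41%, 12.8%, 13.1% and 23.3%, and in SHNK against non-stressed saline 0.00550%, 7.50%, 0.00550% and 18.3%.

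Of 30 other genes of oligodendrocytes, all tested, edgeR called 2 in SHNK against stressed saline, both lower, a share near that of all genes. There DESeq2 called 5, limma voom 4, and 10 had an unadjusted p under 0.05. EdgeR called 0 in each of the other comparisons, where 2 (stress) and 6 (SHNK against non-stressed saline) had an unadjusted p under 0.05, DESeq2 called 0 and 2, and limma voom 0 and 0. The 2 that fell were Plekhb1, a membrane protein with a pleckstrin homology domain, and Plxnb3, a semaphorin receptor. Plekhb1 averaged 514 ± 15.5 CPM in SHNK libraries and 652 ± 76.2 CPM in stressed saline libraries (SD, n = 3 each; log2 fold change -0.34 ± 0.090, edgeR adjusted p = 0.0374). Plxnb3 averaged 3.53 ± 0.478 CPM in SHNK libraries and 5.91 ± 0.771 CPM in stressed saline libraries (log2 fold change -0.74 ± 0.18, edgeR adjusted p = 0.0264). Both calls were lost when certain libraries were left out. Plekhb1 missed the threshold without stressed saline replicate 1 or 3 or any 1 SHNK library, and Plxnb3 without stressed saline replicate 1 or 3 or SHNK replicate 2 or 3, with edgeR adjusted p up to 0.160 and 0.124. Plxnb3 also missed it with the GC and length offsets (log2 fold change -0.51, edgeR adjusted p = 0.0579).

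Of 20 genes that signal to the lineage, 19 were tested, and Lif was not analysed here. In SHNK against stressed saline 1 rose and 3 fell by edgeR, while DESeq2 called 5, limma voom 6, and 8 had an unadjusted p under 0.05. In the stress comparison and in SHNK against non-stressed saline edgeR called 0, with 2 and 8 at an unadjusted p under 0.05, while DESeq2 called 0 and 4, and limma voom 0 and 0. Igf1, a growth factor that promotes oligodendrocyte survival and myelination, rose to 14.3 ± 2.11 CPM in SHNK libraries, against 8.10 ± 0.241 CPM in stressed saline libraries (SD, n = 3 each; log2 fold change 0.82 ± 0.14, edgeR adjusted p = 0.00590). In non-stressed saline libraries Igf1 averaged 10.6 ± 1.35 CPM, and which cells it came from was not tested. Adgrg1, an adhesion receptor that keeps precursors dividing, fell to 44.9 ± 3.14 CPM in SHNK libraries, against 72.2 ± 5.44 CPM in stressed saline libraries (log2 fold change -0.68 ± 0.11, edgeR adjusted p = 0.00547). Both calls held whichever of the 9 libraries was left out.

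The receptor Notch1, which holds back oligodendrocyte maturation, fell to 4.68 ± 0.636 CPM in SHNK libraries, against 7.56 ± 0.284 CPM in stressed saline libraries (log2 fold change -0.69 ± 0.15, edgeR adjusted p = 0.0166). Its effector Hes5 fell to 29.1 ± 2.45 CPM in SHNK libraries, against 47.4 ± 7.78 CPM in stressed saline libraries (log2 fold change -0.70 ± 0.13, edgeR adjusted p = 0.00818). Notch1 missed the threshold with the GC and length offsets (-0.41, adjusted p = 0.0681) and without stressed saline replicate 1 or 2 or SHNK replicate 2 or 3 (up to adjusted p = 0.0944), and Hes5 without SHNK replicate 3 (adjusted p = 0.0585). Notch1, Hes5 and Adgrg1 are also expressed by astrocytes. All 10 listed astrocyte genes had a log2 fold change below 0 in the same comparison. EdgeR called 6 of these 10 lower, against 6.41% of all tested genes called in either direction. The part of astrocytes in these values was not tested.

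Of 30 genes of myelin lipid and sterol synthesis, all tested, edgeR called 0 in each of the 3 comparisons. In the order stress, SHNK against stressed saline, SHNK against non-stressed saline, there were 2, 5 and 6 at an unadjusted p under 0.05, while DESeq2 called 0, 1 and 2, and limma voom 0, 1 and 0. These counts were near or below the shares of all genes. Their median log2 fold changes were -0.036, 0.046 and 0.016, so the genes that supply the lipid of the sheath were centred near 0 throughout.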

How the data were processed

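Per the labels' protocols, RNA came from a Direct-zol kit, and 100 ng of total RNA entered libraries made with SMARTer Ultra low and TruSeq chemistry. The submitters' processing notes name Trimmomatic 0.38, HISAT2, StringTie and GRCm38 (mm10), in roles not stated; strandedness was not given in those sources. The authors deposited whole-number read counts per gene symbol for the 9 libraries, each symbol with at least 1 count in every library, so genes at 0 in any library are outside all comparisons.

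Groups followed the labels, with all libraries kept. Genes were filtered with filterByExpr (minimum count 10, total 15; 762 symbols left out), scaled by TMM and fitted over all 9 libraries with edgeR 4.0.16 (glmQLFit, glmQLFTest; R 4.3.3), with Benjamini-Hochberg adjustment over 18194 genes and a threshold of 0.05. The fold change has the group named first on top. Log2 CPM used a prior count of 2. The common biological coefficient of variation was 0.132, so spread between libraries, not counting error, limits all but the scarcest genes. Transcript length and GC content are medians over GENCODE basic transcripts (GRCm38), and gene positions and promoters are RefSeq's (GRCm38.p6). The fit was tested on simulated data. No 2 libraries were identical or agreed within sampling noise. The same replicate numbers stand in every group, but same-numbered libraries did not deviate together.

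The members and lists were chosen with earlier results of these data known. Library values were given for Pdgfra, Olig2 and Mbp and for the 3 members per class with the smallest p in each comparison, and some others were named after their values were seen (Bcas1 among them). Alternatives were DESeq2 1.42.0 (genes it left without an adjusted p were not counted), limma 3.58.1 voom with quality weights, other scalings and filters, a replicate block, fits of 2 groups, a threshold of 0.1, leaving out each library and, added after seeing the data, GC and length offsets. Some genes of the lists are not reported here by name.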

Additional observations from a re-analysis of the deposited data

How the results depend on the processing

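Over the alternative fits and the removal of each library, the 33 genes gave 594 values under stress, of which 566 kept direction and side of the threshold, 28 changed sign and 0 newly passed. SHNK against stressed saline gave 594, of which 560 were kept, 24 changed sign and 10 newly passed. The comparison of SHNK with non-stressed saline gave 593, of which 567 were kept, 23 changed sign and 3 newly passed. The cause of these changes was not tested.

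Members called, 0 by edgeR in each comparison, were 2 by DESeq2, 3 by limma voom, 1 in a fit of the 2 groups alone and 4 at an adjusted p of 0.1 for SHNK against stressed saline, and 0 to 3 with a library left out. For SHNK against non-stressed saline they were 2 by DESeq2, 1 at an adjusted p of 0.1, and 0 to 1 with a library left out. All-gene counts for stress (213) were 472 by DESeq2, 102 by limma voom, 370 at 0.1 and 40 to 306 with a library left out. For SHNK against stressed saline (1167) they were 2005, 2377, 2182 and 176 to 1385. For SHNK against non-stressed saline (1) they were 994 by DESeq2, 520 at 0.1, 9 in the fit of 2 groups, 0 with upper-quartile scaling, no filter, a filter of 1 CPM or the GC and length offsets, and 0 to 749 with a library left out. The precursor median under stress ran from -0.027 to 0.18 with a library left out, and with the GC and length offsets it was -0.093 and -0.034 in the 2 SHNK comparisons.

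A replicate block called 0 members in every comparison and 177, 878 and 6 genes in all. Same-numbered libraries had correlated deviations from -0.10 to 0.11, so the numbers were not taken as pairs. Plekhb1 missed the threshold under the block (adjusted p = 0.0608).

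Signs of these uncalled members changed. By limma voom, Cspg4 was 0.0029 and Fa2h -0.022 under stress, Tspan2 -0.041 and Ppp1r14a 0.071 in SHNK against stressed saline, and Trf 0.0094 in SHNK against non-stressed saline, where it was also 0.0024 with upper-quartile scaling and 0.00020 with a 1 CPM filter. With GC and length offsets, Cspg4 was 0.062, Sox10 0.0051 and Tspan2 -0.0043 under stress. In SHNK against stressed saline Mog was -0.066, Opalin -0.046, Aspa -0.13, Tspan2 -0.19 and Ppp1r14a 0.014. In SHNK against non-stressed saline Mog was -0.00060, Mag 0.012, Cnp 0.070, Ugt8a -0.055, Aspa -0.032, Tspan2 -0.20, Trf 0.033 and Hapln2 0.0056.

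With a library left out, ranges that crossed 0 were, under stress, C1ql1 -0.0080 to 0.23, Cldn11 -0.045 to 0.51, Cspg4 -0.18 to 0.20, Fa2h -0.14 to 0.29, Gjb1 -0.0018 to 0.23, Gjc3 -0.0054 to 0.22, Mog -0.043 to 0.25, Myrf -0.30 to 0.18, Nkx6-2 -0.29 to 0.066, Olig2 -0.12 to 0.047, Opalin -0.071 to 0.45, Ppp1r14a -0.13 to 0.46, Sox10 -0.20 to 0.20, Trf -0.052 to 0.22 and Tspan2 -0.051 to 0.098. In SHNK against stressed saline they were Car2 -0.0062 to 0.18, Cldn11 -0.40 to 0.13, Mal -0.18 to 0.018, Mog -0.12 to 0.16, Opalin -0.086 to 0.22, Ppp1r14a -0.29 to 0.21, Trf -0.23 to 0.039, Tspan2 -0.055 to 0.076 and Vcan -0.24 to 0.11. In SHNK against non-stressed saline they were Anln -0.047 to 0.15, Cldn11 -0.15 to 0.34, Enpp6 -0.052 to 0.24, Mobp -0.23 to 0.0069, Opalin -0.0095 to 0.48, Ppp1r14a -0.11 to 0.35, Tmem88b -0.12 to 0.15, Trf -0.097 to 0.092, Tspan2 -0.044 to 0.12 and Ugt8a -0.025 to 0.13. A group of 2 remaining libraries was assumed to vary like the others. With 3 libraries a group, the 95% interval of a fold change spanned 0.41 to 1.18 log2 units, which is wide beside the changes of these genes.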
